A study of Caenorhabditis elegans with 2 samples.

Results

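The regions described here are 229 places on chromosome X of Caenorhabditis elegans where CEH-20 was called bound between protein-coding genes and away from their starts. They were taken from the conservative peak list of the series, which holds 2522 peaks, 630 of them on X. A peak belonged to the set when its summit lay outside every protein-coding gene, more than 500 bp from any protein-coding transcript start and not within 200 bp of a tRNA gene. The set made up 36.3% of the X peaks. A further 20 X peaks met the rule on genes but lay near a tRNA gene. The members closest to the limit had summits 503, 516 and 522 bp from a start, and the intergenic X peaks just outside it had summits at 494, 491 and 482 bp. No measured value entered the rule apart from the authors' decision to keep a peak.

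Chromatin came from whole larvae of strain RW12211 in the L4 stage, 49 hours old, which had been synchronised as bleached and starved L1 larvae. All animals carried ceh-20 with TY1, EGFP and 3xFLAG tags, inserted by CRISPR at the gene itself on chromosome III, and the tag was used to pull down CEH-20 and its DNA with anti-GFP, followed by sequencing (ChIP-seq). There were 2 biological replicates of this 1 group, so no condition could be compared, and the comparisons are between peaks on X and on the autosomes and between summits and their flanks. Whole animals were used, so the cells in which a region was bound are not known, and the sex of the larvae was not recorded. No untagged or input library was analysed here, so binding of the tagged protein and signal that does not depend on the tag cannot be told apart.

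CEH-20 belongs to the PBX family of homeodomain transcription factors. Such factors bind as partners of Hox proteins or of Meis-type proteins, among them UNC-62 in the worm. In larvae it is known for roles in the postembryonic mesoderm, in migrating neuroblasts and in the vulva. Chromosome X has a regulation of its own: in hermaphrodites a condensin-based dosage compensation complex is loaded onto X at recruitment sites, known as rex sites, and lowers the output of X genes. The rex sites carry the MEX motif, whose core is the 8-mer GCGCAGGG.

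This MEX core lay within 50 bp of the summit of 10 of the 229 distal X peaks, and 6 of these 10 were among the 20 strongest peaks of the set. Their sequences are shown because they separate the distal X peaks most clearly from those on the autosomes. Each is 60 bases of the RefSeq genome sequence of WBcel235 (ce11), read on the strand that holds the core, with the core in capitals. They are named by the gene with the nearest protein-coding transcript start.
W02H3.3, chrX:11094200-11094259, minus strand: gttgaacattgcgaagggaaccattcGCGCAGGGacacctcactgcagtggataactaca
nspc-17, chrX:14525874-14525933, minus strand: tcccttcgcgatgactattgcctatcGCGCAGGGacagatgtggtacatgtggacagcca
gtr-1, chrX:806648-806707, plus strand: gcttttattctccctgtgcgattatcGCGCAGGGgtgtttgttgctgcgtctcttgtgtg
F20B6.9, chrX:4209240-4209299, minus strand: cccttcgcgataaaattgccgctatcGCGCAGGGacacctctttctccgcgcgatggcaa
xol-1, chrX:8036409-8036468, plus strand: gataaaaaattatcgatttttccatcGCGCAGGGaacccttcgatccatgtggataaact
ins-39, chrX:1345030-1345089, plus strand: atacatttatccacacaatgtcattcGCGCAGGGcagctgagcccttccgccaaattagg
T24D8.6, chrX:2364873-2364932, minus strand: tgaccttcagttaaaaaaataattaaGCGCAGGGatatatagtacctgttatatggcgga
col-185, chrX:13514532-13514591, plus strand: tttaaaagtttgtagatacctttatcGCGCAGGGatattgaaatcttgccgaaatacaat
dpy-23, chrX:4395589-4395648, plus strand: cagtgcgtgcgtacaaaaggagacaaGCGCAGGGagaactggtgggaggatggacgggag
WBGene00020828, chrX:1837866-1837925, plus strand: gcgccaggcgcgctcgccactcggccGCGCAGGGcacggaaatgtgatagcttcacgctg

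The letters around the core were also alike in most of these sequences. The base just before the core was C in 8 of 10, the one before that was T in 7 of 10, and the base just after the core was A in 7 of 10. A second core stood close to the first in the peaks of W02H3.3, gtr-1 and xol-1. At xol-1 the copies lay on opposite strands, with centres 28 bp before and 6 bp after the summit.

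The peaks with a MEX core were strong in both replicates for most members. The conservative list gives each peak a signal, the authors' own value of peak strength, on a scale that is not stated, so it is used only to rank peaks. The core peak nearest to W02H3.3 had the highest signal of the whole set, 419, with 238 in the ranked list of replicate 1 and 171 in that of replicate 2. The peak 733 bp upstream of nspc-17, a gene of a nematode-specific peptide family, had 410.3, with 220.3 in replicate 1 and 171 in replicate 2. The peak downstream of gtr-1 had 316, with 164 and 153 in replicates 1 and 2. These 3 peaks were high in both replicates, and each of the 7 strongest core peaks was in the thresholded lists of both.

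The gene xol-1 is the switch that sets male development in embryos with a single X chromosome and is kept off in hermaphrodites. Its peak (chrX:8036304-8036561, 4880 bp upstream of the start) had a signal of 218, with 142 in replicate 1 and 78.7 in replicate 2. The other core peaks of the strongest 20 were those of F20B6.9, with 301 (146 in replicate 1 and 140.0 in replicate 2), and of ins-39, an insulin-like peptide gene, with 199.8 (99.5 and 90.6 in replicates 1 and 2). T24D8.6 followed with 126, or 79.9 in replicate 1 and 43.3 in replicate 2. The weakest were those of col-185, a cuticle collagen gene (90.6), dpy-23, which codes for a subunit of the clathrin adaptor AP2 (86.7), and WBGene00020828 (85.6). The col-185 peak was in the list of 1 replicate, and those of dpy-23 and WBGene00020828 were in neither.

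**Figure D1:**
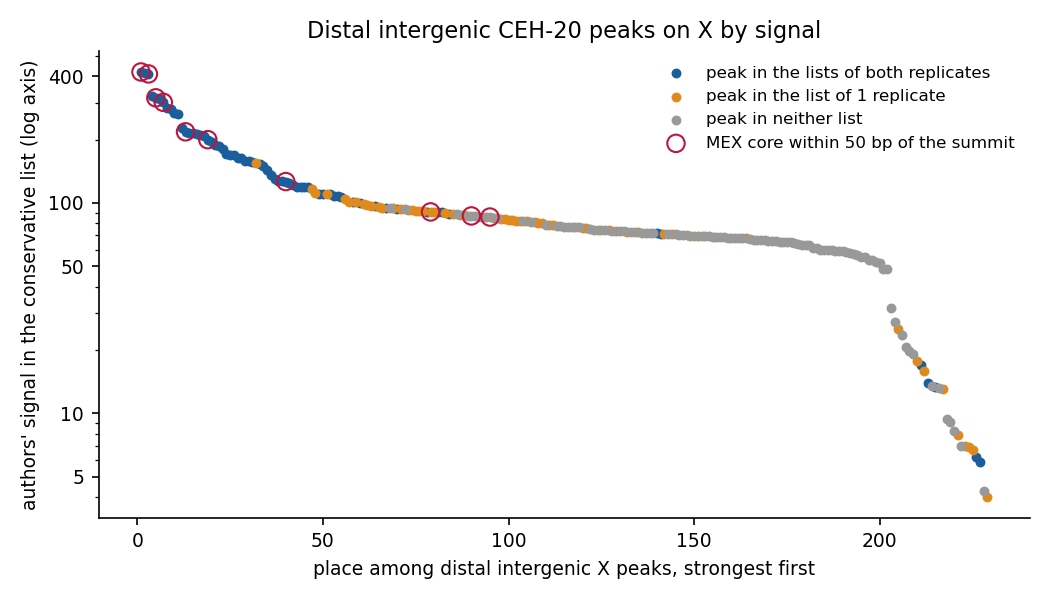
Signal of each of the 229 distal intergenic X peaks in the conservative list (log axis), ordered from strongest to weakest and coloured by whether the peak overlaps one in the lists of both replicates, of 1 or of neither. Rings mark the 10 peaks with a MEX core within 50 bp of the summit, of which 6 are among the 20 strongest.

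Set against other sequence, the MEX core was more frequent at summits than in flanks and more frequent on X than on the autosomes. It was within 50 bp of the summit in 10 of 229 distal X peaks (4.37%, exact 95% interval 2.11 to 7.88) and in none of their flanks 250 to 300 bp away (adjusted p = 0.00781 over 12 motifs by a two-sided exact McNemar test). Distal peaks on the autosomes had it in 2 of 624 (0.321%), giving X over autosomes an odds ratio of 14.2 (adjusted p = 0.000777 over 12 motifs by a two-sided Fisher's exact test). Over all 2522 conservative peaks the share was 0.634%. Promoter and genic peaks on X had it in 4 of 299 (1.34%). Intergenic X sequence as distant from genes, cut into 63442 windows of 101 bp, held it in 0.0473%, and such sequence on the autosomes in 0.0277%.

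With a wider window of 150 bp on each side, 15 of the distal X peaks (6.55%) and 2 of the autosomal ones had the core. The core occurred 81 times on X, or 4.57 times per Mb, and 233 times on the autosomes, or 2.82 per Mb. Distal intergenic sequence of X held 39 copies, and 18 copies on X lay within 150 bp of a member's summit. When the 20 strongest peaks were left out, the odds ratio was 6.07 and the difference no longer passed (Fisher's exact test, adjusted p = 0.150). The summit result also missed the threshold in the lists of replicate 1 alone and replicate 2 alone (exact McNemar test, adjusted p = 0.0938 in each), whereas the difference between X and autosomes passed in both (odds ratios 13.2 and 13.4).

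A looser form of the core with any base at N, GCGNAGGG, was tried after the data were seen. It was in 17 of 229 distal X summits (7.42%), in 2 flanks and in 2 of 624 autosomal summits (odds ratio 24.9). As it was chosen after these summits were seen, the counts are a description with no test. Among the 20 strongest peaks it was within 50 bp of 9 summits and within 150 bp of 12. It was at 3 of the next 56 peaks, at 4 of the 76 after those and at 1 of the weakest 77. No share over all conservative peaks or over promoter and genic X peaks is given for this form. The counts therefore do not set distal X peaks apart from other X peaks.

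**Figure D2:**
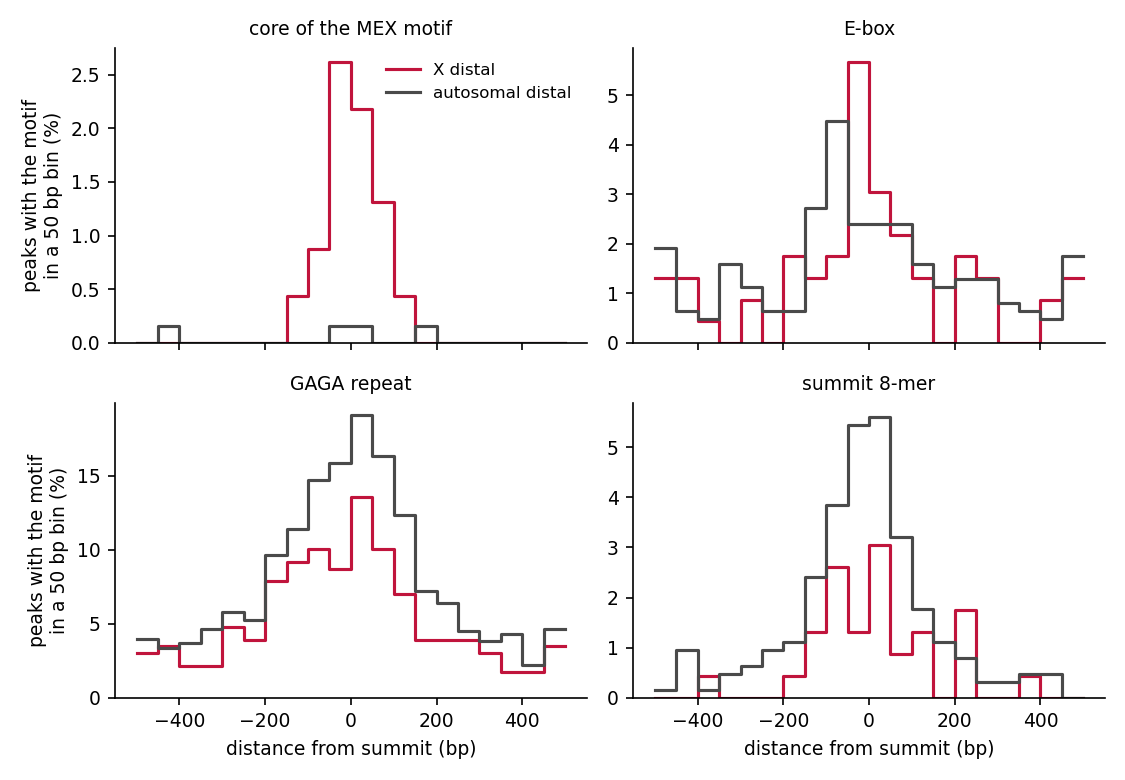
Share of distal intergenic peaks with a motif in each 50 bp bin from 500 bp before to 500 bp after the summit, for 229 X peaks (red) and 624 autosomal peaks (grey). Over the plotted range the MEX core on X appears only within 150 bp of summits, and the GAGA repeat and the summit 8-mer are higher at autosomal than at X summits.

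Other motifs gave a different picture. The E-box CACGTG, a site of basic helix-loop-helix proteins, was at 19 summits (8.30%) and in 4 flanks (1.75%; exact McNemar test, adjusted p = 0.00781). Autosomal distal peaks had it at 28 summits (4.49%), and the difference between X and autosomes did not pass (odds ratio 1.93, Fisher's exact test, adjusted p = 0.123). All conservative peaks had it in 5.43%. The repeat GAGAGA was at 46 X summits (20.1%) and in 19 flanks (8.30%; exact McNemar test, adjusted p = 0.00322). It was less frequent at X summits than at the 185 of 624 autosomal summits with it (29.7%; odds ratio 0.597, Fisher's exact test, adjusted p = 0.0215), against 22.3% over all conservative peaks.

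The 8-mer AGACGCAG, which had been picked earlier from the summits of the whole list, was at 7 X summits (3.06%) and in no flank. It was at 62 autosomal summits (9.94%), and all conservative peaks had it in 7.3%. As that choice used these same summits, most of them autosomal, the counts are given as a description with no test. The 8-mer is rarer on X as a whole, with 29.4 copies per Mb against 64.1 per Mb on the autosomes. The part of this in the difference between summits was not tested. The 7 peaks had their nearest starts in gtr-1, hda-4, cebp-1, F52G3.1, dct-1, nhr-17 and ain-1, and the gtr-1 peak had a MEX core as well. The ain-1 peak counted here is not the one of signal 215 described below, which had no such 8-mer within 150 bp.

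The E-box and GAGAGA were already known to be frequent at summits of the whole list, so their summit counts are no independent support. Both missed the threshold in the list of each replicate alone (exact McNemar tests, adjusted p of 0.375 and 0.103 for CACGTG and 0.453 and 0.103 for GAGAGA in replicates 1 and 2). The lower share of GAGAGA on X lost its call in 8 of 16 alternatives, with odds ratios of 0.579 to 0.738 in those 8. Among them were the larger list, overlapping peaks merged and q-values of at most 0.05 (Fisher's exact tests, adjusted p of 0.122, 0.0696 and 0.0659).

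The composite site of PBX and Hox proteins, TGATNNAT, was at 23 X summits (10.04%) and in 21 flanks (9.17%), with no detectable difference (exact McNemar test, adjusted p = 0.878). Autosomal distal peaks had it at 79 summits (12.7%) and in 49 flanks (7.85%), and the share at summits did not differ detectably between X and autosomes (odds ratio 0.770, Fisher's exact test, adjusted p = 0.512). Over all conservative peaks the share was 10.2%. TGATNNAT was at 5 of the 20 strongest X summits, that of W02H3.3 among them, and at 6 of the next 56. It was at 7 of the 76 after those and at 5 of the weakest 77, and these counts were not tested. A control with the same letters in another order, GTATNNAT, was at 13 X summits and in 9 flanks. Of those 13 summits, 3 were among the 20 strongest, and the share was 5.68%, against 3.01% over all conservative peaks. The core of Meis-type sites, TGACAG, was at 10 summits (4.37%) and in 7 flanks, against 4.88% over all conservative peaks.

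The composite site of PBX and Meis-type proteins, TGATTGAC, was at 5 X summits and in none of the flanks, where 5 peaks allow no smaller unadjusted p than 0.0625 (exact McNemar test, adjusted p = 0.125), so this test could not pass. The share at X summits was 2.18%, against 0.265% of the 101 bp windows of distal X sequence. It was at 5 autosomal summits (0.801%) and in 0.753% of all conservative peaks. None of the 5 was among the 20 strongest X peaks. They are shown because mammalian relatives of the protein bind this site, with the 8 letters in capitals.
C46F2.1, chrX:8074650-8074709, minus strand: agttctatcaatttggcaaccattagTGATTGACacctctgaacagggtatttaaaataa
F57G12.1, chrX:12172988-12173047, minus strand: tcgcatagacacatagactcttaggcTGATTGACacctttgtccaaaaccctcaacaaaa
C49F5.13, chrX:11962611-11962670, plus strand: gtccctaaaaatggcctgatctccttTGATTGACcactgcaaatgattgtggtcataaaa
pqn-15, chrX:4307661-4307720, plus strand: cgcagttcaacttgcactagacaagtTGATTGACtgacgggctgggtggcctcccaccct
mig-15, chrX:10435876-10435935, plus strand: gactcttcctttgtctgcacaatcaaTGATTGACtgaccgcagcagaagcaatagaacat

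The C46F2.1 peak had a signal of 105, with 32.1 in replicate 1 and 72.3 in replicate 2. The other 4 had between 13.3 and 81.6. The mig-15 peak, far upstream of a gene for a kinase of the Nck-interacting family, had the 13.3. It overlaps a stronger peak without the motif, whose signal was 111, and the peaks of both replicates there (51.9 in replicate 1 and 48.8 in replicate 2) are matched to that stronger peak too.

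Of the remaining motifs, none passed either test. The GATA site GATAAG was at 18 summits (7.86%) and in 6 flanks (exact McNemar test, adjusted p = 0.0544). Its share over all conservative peaks was 7.57%. The TCF core TCAAAG was at 12 summits (5.24%) and in 23 flanks (exact McNemar test, adjusted p = 0.137), against 4.76% over that list. The Twist-type E-box CATATG was at 1 summit (0.437%) and in 3 flanks, and the AP-1 site TGANTCA at 6 summits (2.62%) and in 11 flanks. Over all conservative peaks their shares were 1.31% and 1.98%. In all, 135 of the 229 summits had at least 1 of the 12 motifs. That count includes the reordered control GTATNNAT and motifs no more frequent at summits than in flanks. No such count from other peaks stands beside it, so nothing is drawn from it. Summits were richer in G and C than their flanks, with a median of 44.6% against 34.7%, and on the autosomes with 45.5% against 33.7%. The part of base composition in these motif counts was not tested. Motifs were read on both strands, and TGATNNAT and TGANTCA can match the same letters.

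**Figure D3:**
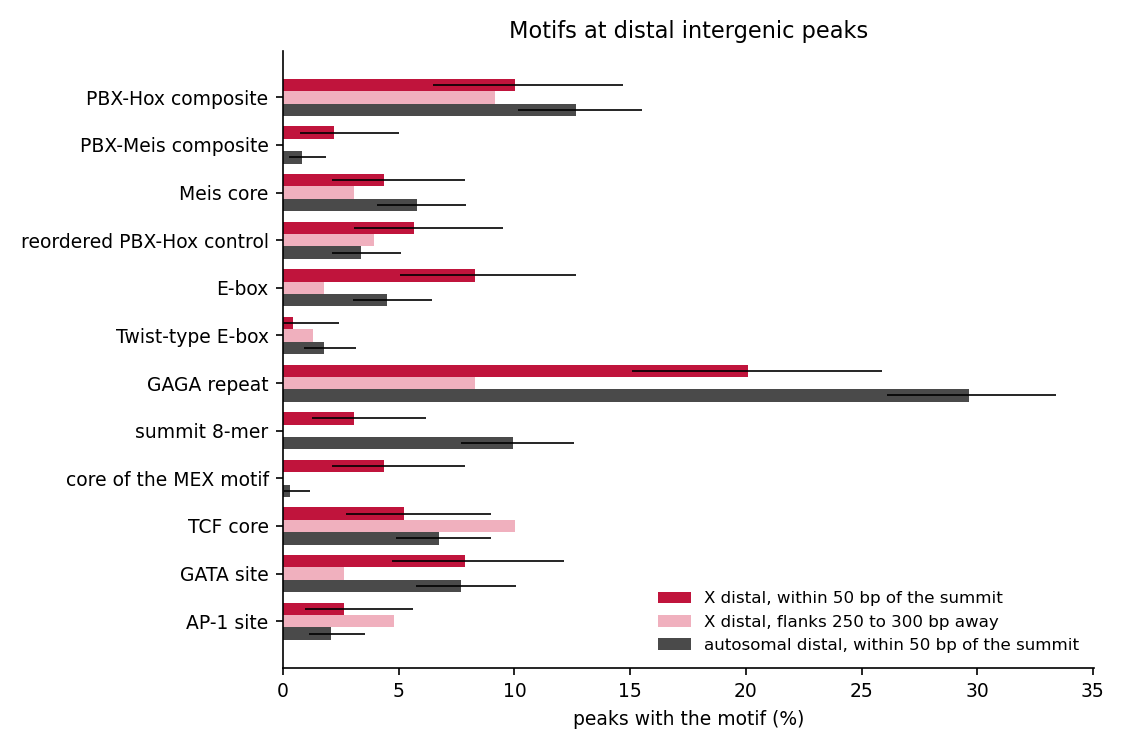
Share of distal intergenic peaks with each of 12 motifs within 50 bp of the summit on X (red, 229 peaks), in the flanks of the same X peaks (pink) and within 50 bp of the summit on the autosomes (grey, 624 peaks). Lines at summits are exact 95% intervals that cover counting error only, and the MEX core reaches 4.37% on X and 0.321% on the autosomes.

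All 20 strongest distal X peaks overlapped peaks in the thresholded lists of both replicates, with signals from 195 to 419. In the ranked list of replicate 1 they had signals from 95.7 to 238, with a median of 136, and in that of replicate 2 from 78.1 to 195, with a median of 124. Their summits lay from 578 to 6051 bp from the nearest start. After W02H3.3, the next was 6051 bp upstream of K02D3.1 (chrX:13700695-13700986), with 414, or 197 in replicate 1 and 195 in replicate 2. This peak had no MEX core within 150 bp. Of the 12 motifs it held only the reordered control GTATNNAT within 50 bp.

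The peak of ZK899.6 (321) and that of C30E1.4 (310.4) also had no MEX core in that window. The C30E1.4 peak was beside the noncoding RNA gene C30E1.9. F19H6.5 (284) and F22H10.2 (264) had a core between 50 and 150 bp from the summit, with centres 106 bp before and 67 bp after it. The peaks nearest to fbxb-58, an F-box gene (280.3), T27A8.7 (266) and M163.1 (227) followed. Within 50 bp of its summit, the M163.1 peak held an E-box CACGTG, TGATNNAT and GATAAG. In the same window the ZK899.6 peak held GAGAGA, the fbxb-58 peak TGATNNAT and the F22H10.2 peak CATATG. The peaks of C30E1.4, F19H6.5 and T27A8.7 held none of the 12 motifs there.

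The rest of the strongest 20 lay near genes of varied roles. Near ain-1, which codes for a protein of the microRNA silencing complex, a peak 952 bp upstream had a signal of 215, with 106 in replicate 1 and 106 in replicate 2. Near aakg-3, a gene for a gamma subunit of the AMP-activated kinase, a peak 4769 bp upstream had 213, with 96.6 in replicate 1 and 114 in replicate 2. Near spat-3, which codes for a RING finger protein of the Polycomb type, a peak 578 bp upstream had 209.7. The others were those of F55G7.5 (215), pigx-1 (209) and nhr-40, a nuclear hormone receptor gene (195).

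Below the strongest peaks, agreement between the replicates' lists dropped with signal. Of the next 56 peaks, with signals from 91.8 to 189, 36 were in both lists. Of the 76 after those, 6 were in both, and of the weakest 77, with signals up to 69.5, 5 were. Weak members that overlap a stronger peak can count here through that neighbour's replicate peaks, as given below. The signal comes from the same replicates as the lists, so this drop is a description and no independent support. In all, 67 of 229 distal X peaks were in both lists (29.3%, exact 95% interval 23.5 to 35.6), 27 in that of replicate 1 alone, 34 in that of replicate 2 alone and 101 in neither (44.1%). The median signal was 144 for peaks in both lists, 82.96 for those in 1 list and 67.7 for those in neither.

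Autosomal distal peaks were in both lists in 210 of 624 cases (33.7%), which did not differ detectably from X (odds ratio 0.815, adjusted p = 0.348 over 7 shares, Fisher's exact test). The share over all conservative peaks was 34.1%. The share in neither list was 44.1% on X and 34.8% on the autosomes (odds ratio 1.48), which did not pass after adjustment (Fisher's exact test, adjusted p = 0.0882). The larger list of the series held 196 of the X members (85.6%) and 556 of the autosomal ones (89.1%; adjusted p = 0.329, Fisher's exact test). The unthresholded ranked list of replicate 1 was then searched, and 225 members had an overlapping peak, with signals of 27.3 at the lowest, 42.0 at the median and 238 at the highest. In the one of replicate 2, 228 members did, with 25.1, 39.6 and 195.

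**Figure D4:**
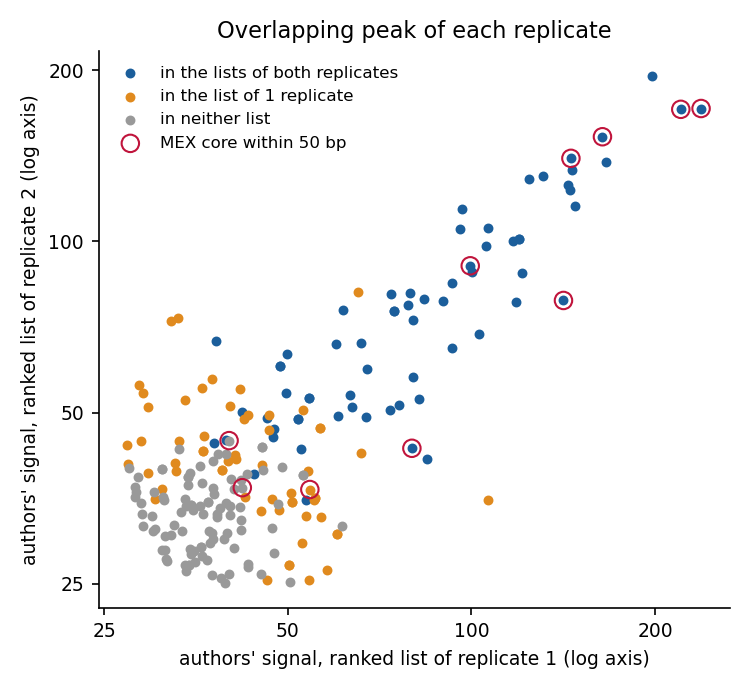
Signal of the overlapping peak in the ranked list of replicate 1 (x axis) and of replicate 2 (y axis), both log axes, for distal intergenic X peaks with one in each. Peaks in both thresholded lists (blue) fill the upper right, peaks in neither (grey) lie at the lower left, and the rings mark peaks with a MEX core.

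Some members are not separate sites. A stronger conservative peak overlapped 26 of the 229, with its summit 199 to 225 bp away, and in 22 cases that stronger peak was itself a member. These 26 had a median signal of 13.3, and 25 of them had a deposited q-value above 0.05. They are matched to the same replicate peaks as their stronger neighbours, and 6 of them count as being in both lists on that basis. Without them 203 peaks were left, of which 61 were in both lists (30.05%), 90 in neither and 6 had such a q-value. A q-value above 0.05 stood beside 31 of 229 X members (13.5%) and 51 of 624 autosomal ones (8.17%; odds ratio 1.76, Fisher's exact test, adjusted p = 0.0882).

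Signals of the set overlapped widely with those of other peaks. Distal X peaks had a lower quartile of 65.6, a median of 77.2 and an upper quartile of 101.2, with a highest value of 419. Autosomal distal peaks had 68.3, 83.6 and 116.5, with a highest value of 680, and promoter and genic peaks on X had a median of 78.2.

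Distal peaks made up more of the X peaks than of the autosomal ones. With peaks near tRNA genes set aside, 229 of 528 X peaks were distal (43.4%, exact 95% interval 39.1 to 47.7) and 624 of 1769 autosomal ones (35.3%, 33.0 to 37.6), which is an odds ratio of 1.41 (p = 0.000843, two-sided Fisher's exact test). X also has more such sequence, 37.3% of its length against 28.0% on the autosomes. The test of shares takes no account of this, so its p-value does not show more binding per length of distal sequence. Per Mb of distal sequence there were 34.6 peaks on X (exact Poisson 95% interval 30.3 to 39.4) and 26.96 on the autosomes (24.9 to 29.2), a ratio of 1.28.

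This ratio does not set X apart from every autosome. Chromosome III had 36.6 distal peaks per Mb and chromosome I had 34.4, against 29.2 on II, 21.6 on V and 21.3 on IV. In the list of replicate 2 alone this ratio of X to autosomes was 0.975 and the distal share did not pass (odds ratio 1.27, Fisher's exact test, p = 0.100). Outside distal sequence, X had 27.2 peaks per Mb and the autosomes 19.3, a ratio of 1.41, which was no lower than the 1.28 of distal sequence. With X cut into 3 parts of equal length, the right part held 43.7 members per Mb of distal sequence, the left part 29.8 and the middle part 29.4.

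The authors' threshold kept slightly more of the distal peaks on X. Of 3211 distal X peaks in the ranked list, 229 were kept (7.13%, exact 95% interval 6.27 to 8.08), against 624 of 10918 on the autosomes (5.72%, 5.29 to 6.17), which is an odds ratio of 1.27 (p = 0.00361, two-sided Fisher's exact test). Over all ranked peaks 4.46% were kept. The difference did not pass when distal meant more than 1000 or 2000 bp from a start (p = 0.0884 and 0.0822, Fisher's exact test). Peaks of 1 list are not independent of each other, so these p-values cover counting error only.

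The nearest transcript start lay at a median of 1946 bp from the summit, with a range from 503 to 14616 bp, and for autosomal distal peaks at 1820.5 bp. It was more than 5000 bp away for 29 members. The summit was upstream of that start in 169 members (73.8%) and 492 autosomal peaks (78.8%; Fisher's exact test, adjusted p = 0.323). The flanking genes pointed away from each other around 71 members, the same way around 122 and towards each other around 36 (15.7%). On the autosomes they pointed towards each other around 41 peaks (6.57%). The share of distal sequence between such genes is not given for X or for the autosomes. The difference was not tested, and members that overlap a stronger peak are counted too, so no preference is read from it. The stretches between genes had a median length of 7423 bp around X members and 5301 bp around autosomal distal peaks.

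Noncoding genes were close to some members, at no higher a share than for autosomal distal peaks or the whole list. A noncoding gene or pseudogene lay within 200 bp of 49 X summits (21.4%) and of 151 autosomal ones (24.2%), which did not differ detectably (odds ratio 0.853, Fisher's exact test, adjusted p = 0.439). Over all conservative peaks the share was 24.9%. On X these were mostly genes annotated as ncRNA, at 41 summits. The median signal was 73.6 beside such genes and 77.7 elsewhere.

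Genes were assigned by the nearest protein-coding start, which does not show that a peak acts on that gene. Of 2731 protein-coding genes on X, 173 were nearest to at least 1 member (6.33%), and 37 of them to more than 1. Nuclear hormone receptor genes, a family of ligand-gated transcription factors, were nearest in 7 of 27 cases. The peaks of nhr-40 (195), nhr-1 (154), nhr-48 (127) and nhr-3 (121) were in the lists of both replicates, and they lay 876 bp upstream, 8113 bp upstream, 595 bp upstream and 3255 bp downstream of the starts. The others were nhr-17, nhr-14 and nhr-71, whose peaks were not in both lists.

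Among genes of tissues in which CEH-20 is best known, counts were small and stand beside the 6.33% of all X genes. Of 7 genes of postembryonic mesoderm development on X, 1 was nearest to a member. This was sma-9, a zinc finger gene of the Schnurri type that acts in the M lineage and in body size, with a peak 2962 bp upstream (chrX:10766162-10766477). Its signal was 189, with 105 in replicate 1 and 98.1 in replicate 2, and the peak was in both lists. Of 5 genes of the Wnt and TGF-beta pathways, 2 were nearest, sma-9 and the Wnt receptor gene lin-18 (72.2). Of 22 homeobox genes on X, 1 was nearest, lim-6 (66.9), and of 12 muscle genes 1, unc-97 (77.4).

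Of 4 genes of developmental timing on X, hbl-1 (63.3) and lin-14 (59.4) were nearest to a member. Both code for proteins that hold larval cells in earlier fates, and neither peak was in both lists. None of 12 genes of axon guidance and adhesion on X was nearest to a member. Of 29 genes of neuronal function 2 were nearest, the dopamine receptor gene dop-3 (85.7) and the innexin gene unc-7 (58.8). Of 36 neuropeptide genes 2 were nearest, ins-39 and flp-19 (72.2), and of 30 collagen genes 1, col-185. Of 6 genes of sex determination and dosage compensation on X, xol-1 was the 1 nearest to a member. These counts stand beside the 6.33% of all X genes, and no list was tested.

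MicroRNA genes were looked up by distance to the gene itself. Of 74 on X, 13 lay within 2000 bp of a member's summit. By the same distance, 6.37% of protein-coding genes on X did, but the shares are not like for like. Members were chosen to lie outside protein-coding genes and away from their starts, which limits that share in advance. MicroRNA genes were under no such rule, so no conclusion is drawn from the difference. These 13 rest on 8 peaks, as several microRNA genes lie together: mir-1018, mir-4921, mir-4923.1, mir-4923.2 and mir-4925 share 1 peak of signal 17.7, and mir-1819 and mir-2212 share another. The strongest of these peaks was the aakg-3 peak with 213, whose summit was 1831 bp from mir-34. A peak of 170.3 lay 1999 bp from mir-62, a peak of 109.9 lay 1226 bp from mir-2221, and the C46F2.1 peak of 105 lay 205 bp from mir-784. The gene let-7, a timing microRNA of late larvae, was singled out after its value was seen. A member's summit lay inside its annotated transcript, but that peak (chrX:14744570-14744885) reached 59.7 and neither replicate's list held it.

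Members were then set out along X, without the 26 that overlap a stronger peak. The gap between neighbouring summits had a median of 45306 bp, and 36 gaps were under 5000 bp. There were 5 runs of 3 or more members with neighbouring summits under 5000 bp apart. Between R03E9.2 and abts-4, on either side of mdl-1, 5 peaks spanned 7371 bp, with signals of 92.6, 157, 68.5, 71.5 and 93.8. E-boxes lay within 50 bp of 3 of these 5 summits, those of 157, 68.5 and 93.8. Between ptr-24 and C49F8.15, around mxl-3, 4 peaks spanned 7946 bp with signals of 96.7, 69.0, 71.3 and 111, and E-boxes lay at those of 96.7 and 71.3. The genes mdl-1 and mxl-3 code for proteins of the Mad and Max families, whose relatives bind the E-box CACGTG.

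The E-box peaks of highest signal are shown with the E-box in capitals, as this was the motif that passed at summits of X without a detectable difference from the autosomes.
M163.1, chrX:14502379-14502438, plus strand: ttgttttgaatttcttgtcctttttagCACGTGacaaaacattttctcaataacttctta
aakg-3, chrX:2971609-2971668, plus strand: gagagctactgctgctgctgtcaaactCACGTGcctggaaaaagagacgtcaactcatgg
R03E9.2, chrX:6737720-6737779, plus strand: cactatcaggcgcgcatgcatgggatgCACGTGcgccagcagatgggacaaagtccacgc
bet-2, chrX:10568575-10568634, plus strand: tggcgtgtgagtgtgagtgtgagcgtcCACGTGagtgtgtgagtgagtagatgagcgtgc

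The R03E9.2 peak is the one of 157 in the run beside mdl-1, with 78.6 in replicate 1 and 77.2 in replicate 2. The bet-2 peak, near a gene for a bromodomain protein, had a signal of 119.5. The remaining runs had no more than 1 E-box. Between apl-1, the gene for the amyloid precursor-like protein, and tbc-7, 3 peaks had signals of 78.0, 85.7 and 84.0, and none of them was in both lists. Between F57G12.1 and cab-1, 3 peaks had 81.6, 67.8 and 94.2, also with none in both lists. Between C30E1.4 and F52G3.8, 4 peaks had 310.4, 101.5, 101.2 and 31.7.

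**Figure D5:**
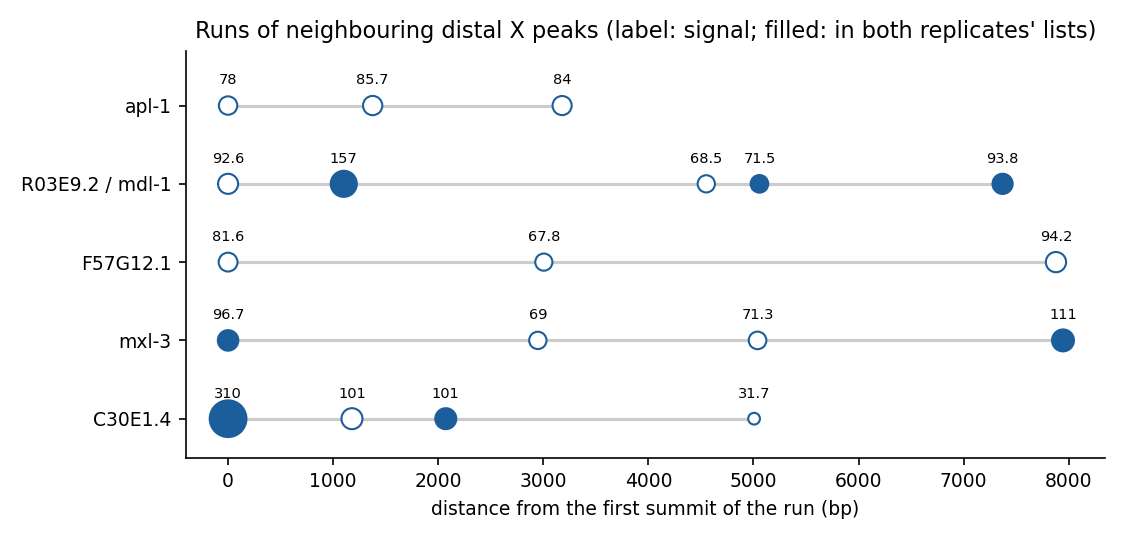
The 5 runs of neighbouring distal intergenic X peaks, each drawn from its first summit (0 bp), with the signal above each peak and the circle's area in proportion to it. Filled circles are peaks in the lists of both replicates, which the runs at R03E9.2 and mdl-1, at mxl-3 and at C30E1.4 have. Those at apl-1 and F57G12.1 have none.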

How the data were processed

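The authors deposited peak lists on ce11, the same assembly as WBcel235, ranked by or kept after a threshold on irreproducible discovery rate (IDR, which grades how consistently a peak is ranked in a pair of inputs). Each peak has a score scaled by IDR up to 1000, a signal whose scale is not stated and a −log10 q-value, as the authors deposited them. The aligner and peak caller are not given in the sources used here. Depth is unknown, as the lists hold no read counts, and intervals cover counting error only. The list of replicate 1 after the threshold has 1249 peaks and that of replicate 2 has 1490.

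Summits were placed against Ensembl release 115 genes, and peaks of different lists were matched by any overlap, taking the strongest. The gene let-7 was matched to its RefSeq name by identical coordinates. Motifs were searched on both strands of the RefSeq sequence. Fisher's exact tests and exact McNemar tests were two-sided, adjusted by Benjamini-Hochberg over 12 motifs or 7 shares at a threshold of 0.05, and checked on simulated data. Genes named are those nearest to the 20 strongest members, up to 4 per list by signal (all for the lists of homeobox, timing, sex and mesoderm genes) and those beside runs. Genes named for a motif were chosen after their values were seen. The members, motifs and 12 gene lists were chosen with earlier results of these data known. Software was scipy 1.17.1, pandas 2.3.3, numpy 2.4.6 and matplotlib 3.10.9 under Python 3.11.15.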

Additional observations from a re-analysis of the deposited data

How the results depend on the processing

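The distal share of X peaks stayed above that of the autosomes under every alternative tried, with odds ratios from 1.27 in the list of replicate 2 alone (without replicate 1, Fisher's exact test, p = 0.100) to 1.62 in the list of replicate 1 alone (without replicate 2). These odds ratios take no account of X having more distal sequence. The density ratio, which does, was 1.10 in the stronger part of the conservative list. With 1 replicate left out it ranged from 0.975 to 1.15. The share of ranked distal peaks kept lost its call when distal meant over 1000 bp (odds ratio 1.17, Fisher's exact test, p = 0.0884) or over 2000 bp (1.22, p = 0.0822, exact). Of the 12 motifs, 3 passed between X and autosomes, and 1 passed when the 20 strongest members were left out (added after seeing the data), in the stronger part of the list and with either replicate left out (1 to 1). Of the 12, 4 passed at summits against flanks. That number was 2 without the 20 strongest members, 2 at over 1000 bp, 0 at over 2000 bp, 1 in the stronger part of the list, 7 within 100 bp of the summit, 2 within 25 bp and 0 to 0 with either replicate left out. Both counts include AGACGCAG, which was picked from these summits, most of them autosomal. Its calls therefore restate that choice and are no support, however often they held. They were lost in 10 of 16 alternatives against flanks and in 4 against the autosomes. Several of these settings leave fewer peaks, down to 99 X members in the stronger part of the list and 107 in the list of replicate 2, and otherwise the cause was not tested. The MEX core kept its difference between X and autosomes in each planned setting that gave a finite odds ratio, from 12.9 to 18.7, and no odds ratio could be had where no autosomal summit had the core. No paired analysis was possible because both replicates belong to 1 group. The unknown depth limits all of this: a region outside the list may lack a call for depth alone.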

Other observations

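The strongest peak of the whole ranked list, which has no threshold, was a distal intergenic X peak that none of the thresholded lists holds. It lay 6937 bp upstream of Y7A5A.7 (chrX:15810939-15811167), wholly in sequence masked as repetitive, with a signal of 1643, or 873 in replicate 1 and 876 in replicate 2. The strongest distal X peak of the conservative list had 419. In all, 4 distal X peaks in the ranked list had a score of at least 830, the lowest in the thresholded lists, and were not kept. Another of them had a signal of 224 near R57.2, and a further one had 205 near the same Y7A5A.7. Why they were not kept was not tested.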
